A study of Sus scrofa with 9 samples.

Results

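The RANKL system consists of 3 genes in the pig gene table, namely TNFSF11 (the ligand RANKL), TNFRSF11B (its soluble decoy receptor osteoprotegerin, OPG) and TNFRSF11A (the signalling receptor RANK), and these were taken by symbol from the 19535 gene rows. The members were chosen by their measured levels and ligand-to-decoy ratio in these libraries, so all of their values are given as a description without a test. RNA was sequenced from 9 cultures of valve interstitial cells (VICs), the fibroblast-like cells of the aortic leaflet, isolated from wild-type pigs aged 4 to 5 months after the endothelial layer had been scraped away. The question behind the design was what the medium that induces calcification changes in these cells, and what basic fibroblast growth factor (bFGF), added to slow calcification, changes on top of it. The control group (n = 3) was kept in plain DMEM, and the OIM group (n = 3) in osteogenic induction medium containing 2 mmol/L phosphate, 50 µg/mL ascorbic acid and insulin. The bFGF group (n = 3) received the same OIM together with 50 ng/mL bFGF, so bFGF was never given without OIM. Per the labels every culture was treated for 3 days, while the study's methods give a shorter treatment. Nothing in the labels says how many pigs or isolations lie behind the replicates, so the spread between libraries may be technical.

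RANKL is a membrane-bound or shed cytokine of the TNF superfamily that binds RANK on osteoclast precursors and, through TRAF6, NF-κB and NFATC1, drives their fusion into bone-resorbing osteoclasts. OPG is a secreted receptor without a membrane anchor that captures RANKL before it reaches RANK, which is why the proportion of ligand to decoy is commonly read in bone. In mesenchymal cells RANKL is raised by cytokines that signal through gp130, by parathyroid hormone and by vitamin D, and mice that lack OPG calcify their arteries.

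Library depth ranged from 57075793 to 64723837 gene counts in the control group, from 57682710 to 67371523 in the OIM group and from 46773376 to 48270827 in the bFGF group, so every bFGF library was shallower than the other 6. Levels in CPM, the reads of a gene relative to the library total, are scaled by the TMM factors, which ranged from 0.937 to 0.967 outside the bFGF group and from 1.10 to 1.11 within it. OIM replicate 2 stood apart from its group, with a mean chi-square per gene of 18.4 against either other OIM library, while all other replicate pairs lay between 4.64 and 11.3. Interstitial markers (VIM, COL1A1, DCN and others, 11 in all) summed to 80162 to 86516 CPM in control, 77392 to 80567 in OIM and 47973 to 48975 in bFGF libraries, so the defining markers of the labelled cell type were abundant.

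TNFSF11 lies on chromosome 11, minus strand, from 24468011 to 24505421 of Sscrofa11.1, with an annotated transcript of 2203 bases in 5 exons. Not a single TNFSF11 read was counted in the 3 control libraries or in the 3 OIM libraries. The bFGF libraries held 28, 14 and 19 reads, that is 0.522, 0.269 and 0.366 CPM, with a mean of 0.386 ± 0.128 CPM (SD, n = 3). RANKL transcripts were therefore seen only in the cultures that had received bFGF, and there at a low level. Per kilobase of transcript it lay above 35.8% to 38.8% of the 19510 genes with an annotated length. Together the bFGF libraries, which were the shallowest, held 61 reads (exact Poisson 95% interval 46.7 to 78.4, counting error only). A count of 0 allows up to 3 reads, which corresponds to 0.0461 to 0.0553 CPM in the control and OIM libraries. Against that limit the bFGF mean was at least 7.52-fold higher than OIM and at least 7.47-fold higher than control, bounds that leave out the spread of the bFGF libraries. For scale, 3282 genes had no read in any control or OIM library, and of these 6 reached 10 reads in at least 1 bFGF library. In 2 of them each bFGF library had at least 10 reads. These were TNFSF11 and ABO, the blood group glycosyltransferase, with 28, 39 and 43 reads, which was picked out after its values were seen.

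TNFRSF11B lies on chromosome 4, plus strand, from 19850212 to 19879132, with an annotated transcript of 2272 bases in 7 exons. Control libraries held 330, 357 and 380 reads, or 6.05, 5.89 and 6.36 CPM (6.10 ± 0.239, SD, n = 3). OIM libraries held 464, 339 and 461 reads, or 8.56, 5.20 and 8.07 CPM (7.28 ± 1.81, SD, n = 3). The OIM mean was 1.19-fold that of control, but the groups overlapped because OIM replicate 2 lay below all control libraries. Without OIM replicate 2 the ratio of means was 1.36, and the log2 difference became 0.45 in place of 0.25. In the bFGF libraries 31, 40 and 14 reads remained, or 0.578, 0.769 and 0.269 CPM (0.539 ± 0.252, SD, n = 3). The highest bFGF library thus held 0.769 CPM and the lowest library of the other groups 5.20 CPM. OPG was 13.5-fold lower with bFGF than in OIM (log2 difference -3.75, and -3.92 without OIM replicate 2) and 11.3-fold lower than in control (-3.50).

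In bFGF libraries TNFSF11 lay above, and TNFRSF11B below, all other libraries, while TNFRSF11A overlapped. Among the 13662 genes that passed the filter on low counts, bFGF and OIM libraries did not overlap in 72.1%, and bFGF and control libraries in 73.7%. OIM and control libraries did not overlap in 28.8%. A lack of overlap was therefore common after bFGF, and nothing is read from it for these genes. TNFSF11 passed that filter only through the bFGF group. The OIM libraries serve in both comparisons, so the OIM and bFGF differences are not independent. In cultures, fewer cells that make a transcript and less transcript per cell cannot be told apart.

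TNFRSF11A lies on chromosome 1, minus strand, from 159128039 to 159187476, with 2 annotated transcripts of 7134 bases in 10 exons. Its reads numbered 1, 4 and 8 in control, 1, 3 and 8 in OIM and 1, 6 and 8 in bFGF libraries. The corresponding means were 0.0728 ± 0.0581, 0.0682 ± 0.0637 and 0.0960 ± 0.0697 CPM (SD, n = 3 each). All groups overlapped and RANK did not pass the filter on low counts, so 2 of the 3 genes entered the fit across genes. Summed over each group there were 13 reads in control (exact Poisson 95% interval 6.92 to 22.2), 12 in OIM (6.20 to 21.0) and 15 in bFGF (8.40 to 24.7). A difference in RANK between the groups was not detectable at this depth. In each group replicate 1 had the fewest RANK reads and replicate 3 the most. Among the genes tested 366 (2.68%) kept 1 order of replicate numbers in the 3 groups.

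**Figure D1:**
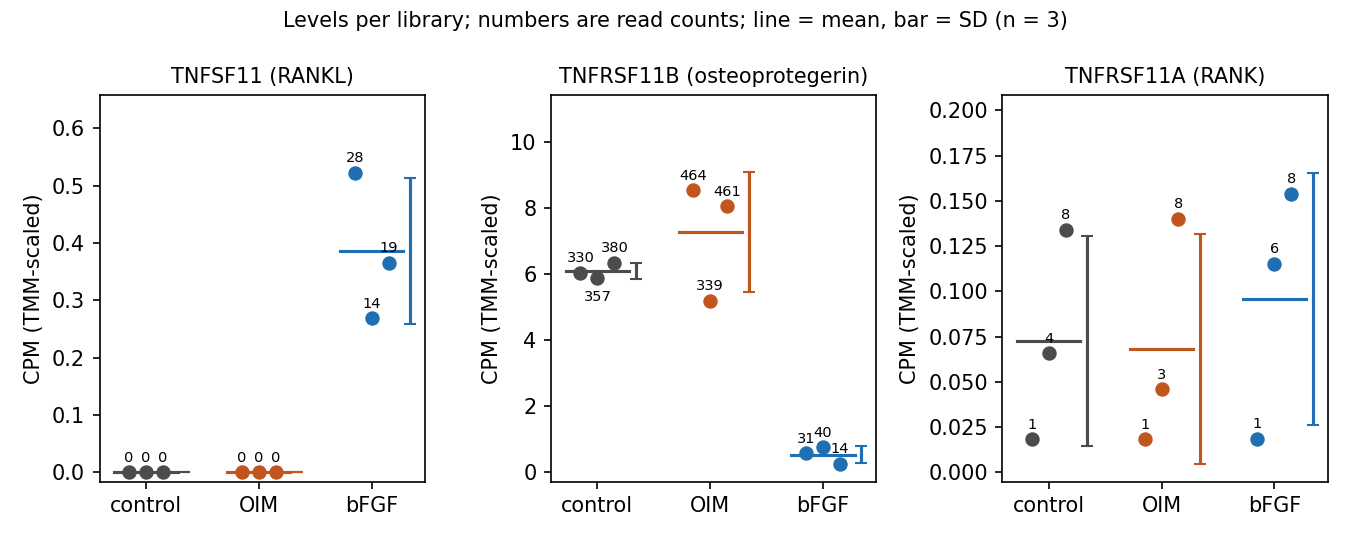
Level of TNFSF11, TNFRSF11B and TNFRSF11A in each of the 9 libraries, in TMM-scaled CPM on a separate linear axis per gene, with the read count beside each point, the group mean as a line and the SD (n = 3) as a bar. RANKL is at 0 in all control and OIM libraries and at 14 to 28 reads with bFGF, OPG is at 339 to 464 reads in OIM and at 14 to 40 with bFGF, and RANK stays between 1 and 8 reads in every group.

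Per kilobase of transcript the 3 genes can be set beside each other. In control cells OPG stood at 2.69 ± 0.105 CPM per kilobase and RANK at 0.0102 ± 0.00814, with RANKL at 0. In OIM, OPG stood at 3.20 ± 0.798 and RANK at 0.00956 ± 0.00894 CPM per kilobase, again with RANKL at 0. Because a count of 0 allows up to 3 reads, RANK and RANKL cannot be ordered in control or OIM. With bFGF, OPG (0.237 ± 0.111) and RANKL (0.175 ± 0.0580) came to lie within the spread of each other, and both were above RANK (0.0135 ± 0.00977).

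The ratio of RANKL to OPG read counts was 0.903, 0.350 and 1.36 in the bFGF libraries (mean 0.870 ± 0.504, SD, n = 3). Only bFGF replicate 3, which had the fewest OPG reads, held more RANKL than OPG reads. The 2 transcripts differ little in length, and per kilobase the mean ratio was 0.897 ± 0.520. In the other groups the ratio was 0, with an upper limit, at 3 RANKL reads, of 0.00789 to 0.00909 in control and of 0.00647 to 0.00885 in OIM libraries. At the mean of these limits the mean ratio with bFGF was at least 119.6-fold that of OIM and at least 102.8-fold that of control. These bounds cover the counts of 0 and leave out the spread of the bFGF ratios. Expressed as the RANKL share of the reads of both genes, the bFGF libraries stood at 47.5% (exact Clopper-Pearson 95% interval 34.3 to 60.9), 25.9% (15.0 to 39.7) and 57.6% (39.2 to 74.5). The same share was 0% in the other 6 libraries, with upper bounds between 0.792% and 1.11%. The ratio combined higher RANKL and lower OPG counts. The intervals cover counting error only.

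**Figure D2:**
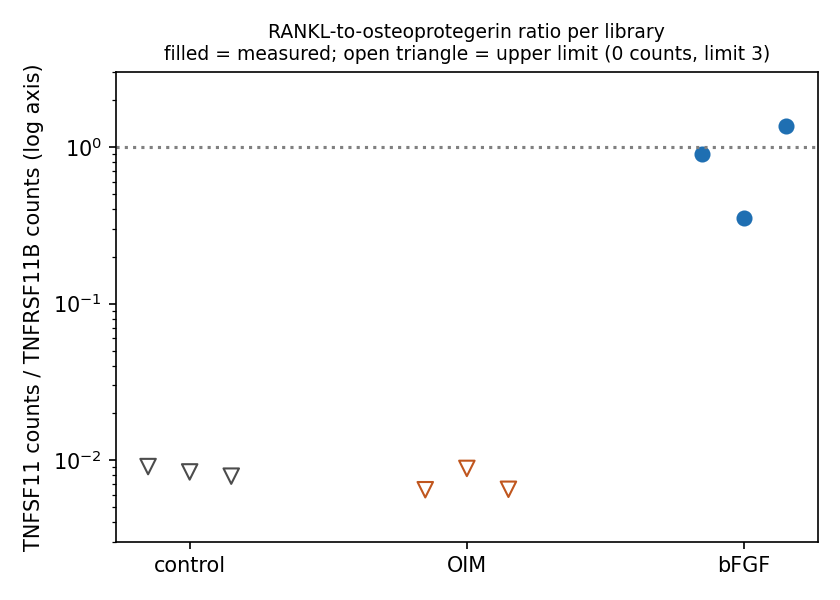
TNFSF11 read count divided by TNFRSF11B read count in each library, on a log axis, where filled circles are measured ratios, open triangles are upper limits for libraries without a RANKL read (3 reads) and the dotted line marks equal counts. The bFGF libraries lie between 0.350 and 1.36, and the limits of the other libraries lie below 0.01.

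The surroundings of the 3 genes were read from the same annotation. COLEC10, a collectin gene on the minus strand, spans TNFRSF11B on the opposite strand. The libraries were stranded, but the strand setting used for counting is not given in the sources used here, so reads of the pair may not have been told apart. COLEC10 held 27 to 65 reads in control and OIM libraries and 21 to 37 with bFGF, and its change between bFGF and OIM did not pass (log2 -0.62, edgeR adjusted p = 0.206). Next to OPG on its lower side, MAL2, a membrane trafficking gene 191517 bases away, fell by 3.90 on the log2 scale with bFGF against OIM (SE 0.429, edgeR adjusted p = 9.99e-08), from 2.12 ± 0.476 to 0.140 ± 0.0875 CPM. NOV, which encodes the matricellular protein CCN3, rose in OIM by 0.69 (edgeR adjusted p = 7.71e-06) and then fell by 1.31 with bFGF (edgeR adjusted p = 3.04e-11). On the upper side EXT1, a heparan sulfate polymerase, and SAMD12 differed by -0.097 and -0.45 between bFGF and OIM. On the upper side of TNFSF11, DGKH, a diacylglycerol kinase, rose by 0.63 between OIM and bFGF (edgeR adjusted p = 1.62e-10). The differences of EPSTI1 (log2 0.25) and of AKAP11, which anchors protein kinase A (log2 -0.24), were under the fold limit of 0.5. FAM216B, the gene nearest to TNFSF11 at 146068 bases, had no read in any library. Around TNFRSF11A the 4 neighbours PHLPP1, ZCCHC2, KIAA1468 and PIGN lay between -0.15 and 0.37. None of the 6179 circular RNAs in the deposited table overlapped any of the 3 genes.

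The genes of the wider pathway were described with lists of RANK signalling components, binding partners and sheddases of RANKL and OPG, regulators of RANKL transcription and cytokines that support osteoclasts. Together these held 109 genes, of which 102 were in the table and 89 were tested. A gene was called when the edgeR adjusted p was at most 0.05 and the log2 fold change at least 0.5 in size. Between OIM and control 3 of the 89 were called higher and 2 lower. Of all genes tested 2.35% were called, 1.49% higher and 0.864% lower. Between bFGF and OIM 20 were called higher and 24 lower. Of all genes tested 36.2% were called, 17.7% higher and 18.4% lower. Without OIM replicate 2 the pathway counts were 3 higher and 6 lower between OIM and control, and 20 higher and 23 lower between bFGF and OIM. The median log2 fold change of the 89 genes was 0.0063 for OIM against control and -0.21 for bFGF against OIM, beside -0.0019 and -0.0029 over all genes tested. Libraries did not overlap in 38.2% of the 89 genes for OIM against control, beside 28.8% of all genes tested, and in 85.4% for bFGF against OIM, beside 72.1%.

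Besides RANKL, OPG also binds TNFSF10 (TRAIL), a death ligand. It stood at 62.1, 62.7 and 58.3 CPM in control, at 51.0, 44.3 and 60.8 in OIM and at 2.48, 2.46 and 1.48 with bFGF. The control and OIM libraries overlapped (log2 -0.23, edgeR adjusted p = 0.122), whereas all bFGF libraries lay far below, with a log2 difference from OIM of -4.60 (SE 0.133, edgeR adjusted p = 1.44e-16). OPG and TRAIL were thus both low in the bFGF libraries. Of the 10 partners tested, bFGF against OIM called 2 higher and 3 lower (median -0.099), near the 17.7% and 18.4% of all genes tested. MMP3, stromelysin, rose by 1.88, and SDC1, a heparan sulfate proteoglycan, by 0.81. GAS6, a ligand of the TAM receptors, fell by 1.55, and ADAM19, a metalloproteinase able to shed RANKL, fell by 1.10. In OIM against control ADAM19 was higher by 0.51 and MMP3 fell by 1.0, though the ADAM19 call was lost without control replicate 1, without OIM replicate 1 or without OIM replicate 3. LGR4, a further receptor described for RANKL, differed by -0.29 between bFGF and OIM, under the fold limit.

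Of 36 regulators of RANKL transcription that were tested, 10 were called higher and 11 lower in bFGF against OIM (median -0.16), beside 17.7% and 18.4% of all genes tested. Between OIM and control 1 was called. The members that rose included cytokines of the gp130 family. IL11 had 12.7, 14.3 and 12.5 CPM in control, 28.1, 41.5 and 24.0 in OIM and 370, 388 and 363 with bFGF. It was higher in OIM than in control by a log2 of 1.25 (SE 0.129, edgeR adjusted p = 1.41e-06) and higher with bFGF than in OIM by 3.57 (edgeR adjusted p = 1.23e-15), without overlap in either comparison. IL6 went from 119.9 ± 15.1 CPM in OIM to 490.3 ± 17.8 with bFGF (log2 2.03), and LIF from 86.9 ± 7.86 to 280.2 ± 14.7 (log2 1.69). WNT5A, a Wnt ligand, and TGFB1 rose by 2.66 and 2.27. Receptors of the gp130 family went in different directions. IL6ST, which encodes gp130, rose by 0.59, and OSMR, the oncostatin M receptor, fell by 1.57. IL6R (log2 0.26) and IL11RA (log2 -0.40) were not called. STAT3, a transcription factor downstream of gp130, fell by 0.72. LIF, STAT3 and these receptors lie outside the naming rule and were chosen after their values were seen.

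The regulators called lower that are named next were picked by the size of their fall. PTHLH, the parathyroid hormone-related protein, went from 21.8 ± 2.65 CPM in OIM to 3.04 ± 0.427 with bFGF (log2 -2.84, edgeR adjusted p = 1.20e-14), and its receptor PTH1R from 4.34 ± 0.466 to 1.08 ± 0.182 (log2 -2.0). IL1B, an inflammatory cytokine, fell by 1.72. ESR1, the estrogen receptor, fell by 2.06 on few reads with overlapping libraries (edgeR adjusted p = 0.0271), a call lost without OIM replicate 2 or 3, without bFGF replicate 1 or 3 and without the filter. VDR, the vitamin D receptor, differed from OIM by 0.082 (edgeR adjusted p = 0.175). RUNX2, the osteoblast transcription factor, was higher in OIM than in control by 0.25 and lower with bFGF than in OIM by 0.12, both under the fold limit. The difference between bFGF and OIM ran from -0.15 to 0.10 over the alternatives run, so its direction was not stable.

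**Figure D3:**
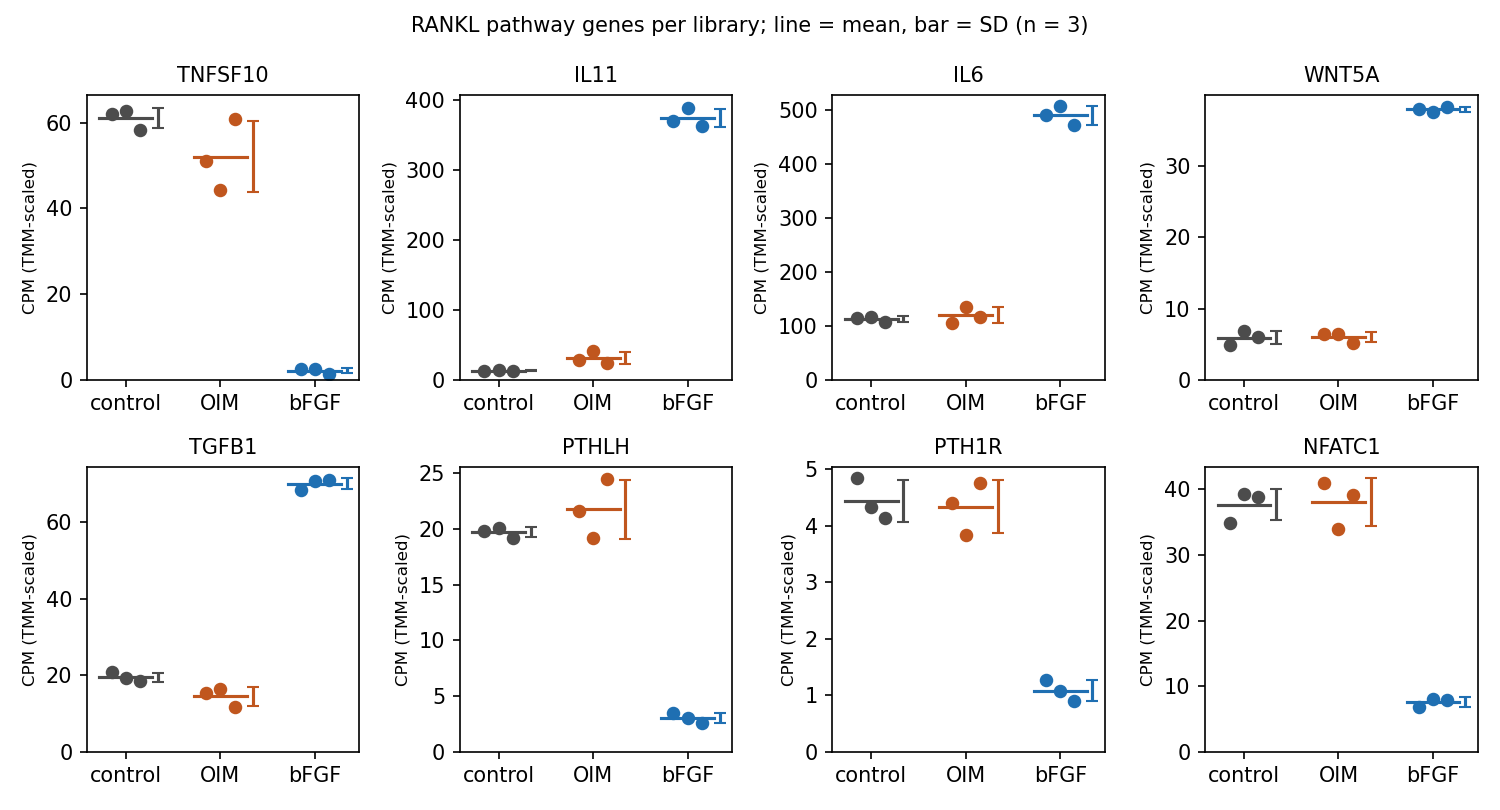
TMM-scaled CPM of 8 RANKL pathway genes in each library on linear axes starting at 0, with the group mean as a line and the SD (n = 3) as a bar. TNFSF10, PTHLH, PTH1R and NFATC1 are lowest in the 3 bFGF libraries, and IL11, IL6, WNT5A and TGFB1 are highest there, while IL11 also lies higher in OIM than in control.

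Downstream of RANK, 31 signalling genes were tested. None was called between OIM and control. Between bFGF and OIM 2 were called higher and 7 lower, with a median of -0.27, so 9 of the 31 were called, beside 36.2% of all genes tested. TRAF6, the adaptor that RANK depends on, differed by -0.29 (edgeR adjusted p = 0.000336), under the fold limit. NFATC1, the transcription factor that governs osteoclast formation, went from 40.98, 33.95 and 39.18 CPM in OIM to 6.81, 8.11 and 7.95 with bFGF (log2 -2.32, SE 0.0859, edgeR adjusted p = 5.84e-15), and between OIM and control it differed by 0.011. TRAF5, a further TNF receptor adaptor, fell by 2.66, MITF, a partner of NFATC1 in osteoclasts, by 1.36 and the repressor BCL6 by 1.19. The AP-1 subunits FOSL1 and JUN rose by 1.74 and 1.16, whereas FOSL2 fell by 0.69 and FOS differed by -0.27, under the fold limit. FOSL2 and FOS lie outside the naming rule. These genes also serve other receptors, and RANK itself had at most 8 reads in any library.

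Of 12 tested cytokines that support or restrain osteoclasts, 6 were called higher and 3 lower with bFGF (median 0.65), and of all genes tested 17.7% and 18.4%. SEMA3A, a semaphorin that restrains osteoclasts, rose most, from 2.66, 4.34 and 2.26 CPM in OIM to 76.3, 72.3 and 71.4 with bFGF (log2 4.55, SE 0.135, edgeR adjusted p = 2.11e-16). SEMA4D rose by 1.57, CXCL8 by 1.14 and EFNB2, an ephrin ligand, by 2.26, and EFNB2 was already higher in OIM than in control by 1.02. The 2 ligands of the macrophage growth factor receptor went apart. IL34 stood at 32.9 ± 0.881 CPM in control, 22.1 ± 1.07 in OIM and 8.54 ± 0.624 with bFGF, with log2 differences of -0.57 and -1.37. CSF1 stood at 135 ± 7.19, 166 ± 7.16 and 219 ± 8.41 CPM, with differences of 0.30 and 0.40 that stayed under the fold limit, the latter reaching 0.62 when libraries were scaled by their totals alone. CXCL12 and TGFB2 fell by 0.95 and 0.83.

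**Figure D4:**
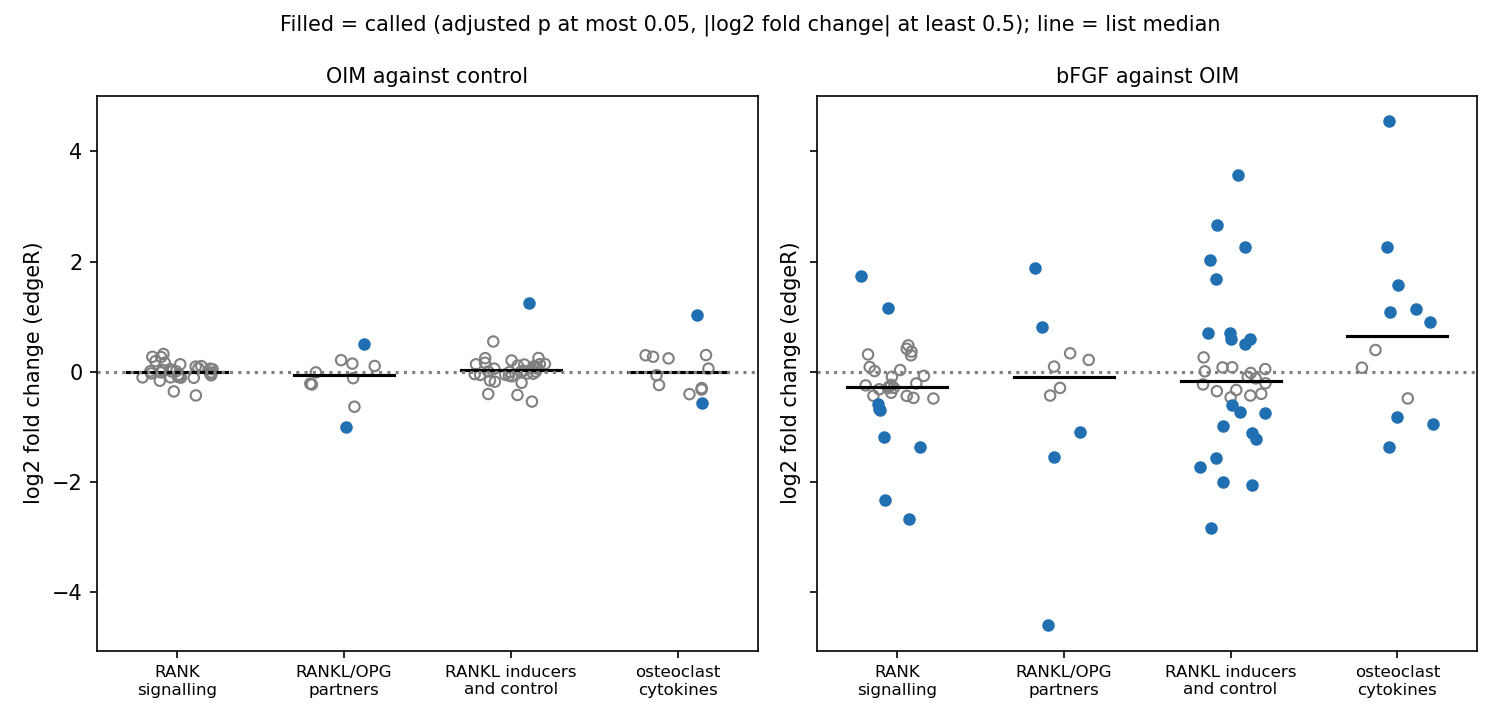
The edgeR log2 fold change of each tested gene in 4 pathway lists, for OIM against control on the left and bFGF against OIM on the right on a shared axis, with called genes filled, other genes open and the list median as a line. In OIM against control 5 genes are called, and in bFGF against OIM genes are called on both sides of 0, from TNFSF10 at -4.60 to SEMA3A at 4.55.

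The RANKL and OPG genes belong to families whose other members were also measured. Of 11 tested TNF ligands bFGF against OIM called 2 higher and 4 lower (median -0.30), where 17.7% and 18.4% of all genes tested were called, and none was called between OIM and control. TNFSF9, the 4-1BB ligand, rose by 3.28, from 0.421 ± 0.205 to 4.17 ± 0.133 CPM. The other ligand called higher, CD70, passed the filter on low counts only through the bFGF group. CD70 lost its call without OIM replicate 3, bFGF replicate 2 or bFGF replicate 3 and without the filter. TNFSF18, the GITR ligand, fell by 4.07, from 11.3 ± 2.81 to 0.666 ± 0.187 CPM, and TNFSF15 and TNFSF4 fell by 2.06 and 0.78. Of 16 tested TNF receptors 5 were called higher and 1 lower (median 0.21), beside the same 17.7% and 18.4% of all genes. TNFRSF12A, the receptor of TWEAK, rose by 1.15 to 212 ± 4.75 CPM, and TNFRSF8 (CD30) and RELT by 2.95 and 1.63 at levels of a few CPM or less. TNFRSF25, a death receptor, fell by 1.59. TNFRSF21 was the only family receptor called in OIM against control (log2 0.52), a call lost without control replicate 3, OIM replicate 1 or OIM replicate 3.

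Markers of the cells that classically make or receive RANKL were read beside these values. Of 15 macrophage and leukocyte markers CD3E, CD3D and MS4A1, which mark the T and B cells that also make RANKL, had no read in any library. That list summed to 14.7 to 18.5 CPM in control, 16.0 to 17.7 in OIM and 9.59 to 10.4 with bFGF. Most of the sum came from CD14, a monocyte receptor that fell by 0.81, from 13.5 ± 0.537 CPM in OIM to 7.68 ± 0.498 with bFGF. The B cell receptor component CD79A had 0 to 27 reads, and its bFGF and OIM libraries overlapped. The myeloid integrin ITGAM had 0 to 3 reads in control and OIM libraries and 3, 4 and 13 with bFGF, and was not tested. Of the osteoclast markers CALCR, the calcitonin receptor, had at most 1 read and ACP5, the tartrate-resistant phosphatase, at most 6 in any library. Another marker, DCSTAMP, had 9, 0 and 17 reads in control, 0, 1 and 0 in OIM and 10, 4 and 4 with bFGF, and was not tested. The 13 markers summed to 1593 to 1666, 1182 to 1258 and 882 to 907 CPM, most of it from CTSK, a collagen-degrading cathepsin that fibroblasts also express. Of the 6 tested 1 was called higher with bFGF, namely ITGB3 (log2 1.95), and 4 lower, against 17.7% and 18.4% of all genes tested. The 10 endothelial markers, in contrast, summed to 74.1 to 76.1 CPM in control, 88.4 to 90.2 in OIM and 171 to 180 with bFGF. Of them 7 were called higher with bFGF than in OIM, beside 17.7% of all genes tested, among them KDR (log2 2.73), EMCN (1.55) and ERG (1.04). Of those called, KDR and CLDN5 passed the filter on low counts only through the bFGF group. Against control 5 of the 10 were called higher with bFGF, beside 18.9% of all genes tested. ERG alone accounted for 137 ± 5.05 CPM there, while KDR stood at 1.17 ± 0.251. Of 11 interstitial markers 2 were called higher with bFGF than in OIM (VIM 0.66 and S100A4 0.82) and 5 lower, led by COL1A1 (-1.34) and COL1A2 (-1.0). Of all genes tested 17.7% were called higher and 18.4% lower in that comparison. The part of these cell type markers in the higher RANKL or lower OPG levels was not tested.

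Genes whose profile over the 9 libraries was most like each member were listed by Pearson's r of log2 CPM, as a description, since the libraries share treatment and depth. For TNFSF11 these were ATP5A1, POC1B, LRPPRC, URM1 and KATNA1 (r from 0.995 to 0.997), and 1802 genes had an r above 0.95. For TNFRSF11B they included ZNF469, LONRF3, GDF10 and ATP6AP1 (r from 0.994 to 0.996), and 1515 genes were above 0.95. Apart from GDF10, the genes named here for TNFSF11 and TNFRSF11B changed by a log2 of at most 1 in size between bFGF and OIM. GDF10, a BMP-like growth factor, had 463 to 696 reads in control and OIM libraries and 30, 30 and 9 with bFGF. For TNFRSF11A the closest were DFNB59, ASNA1, GRASP, LRGUK and SERGEF (r from 0.831 to 0.878), and no gene was above 0.95.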

How the data were processed

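The 9 libraries were made with a stranded total RNA kit after ribosomal depletion per the labels (the study's methods name a poly-A kit). The authors deposited 1 table of estimated counts for Sscrofa11.1, whole for genes, and the submitters' processing notes name Trimmomatic, HISAT2 and StringTie (the study's methods name Cutadapt and STAR). How strand and multi-mapped reads were counted is not given in the sources used here. The table also held 9888 non-coding transcripts and 6179 circular RNAs.

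Expected counts were rounded and fitted with edgeR 4.0.16 in R 4.3.3 (quasi-likelihood test, TMM, filterByExpr, 3 groups, Benjamini-Hochberg adjustment over 13662 genes). CPM are TMM-scaled, and log2 CPM used a prior count of 2. Against groups at 0, folds are bounds at 3 counts per library, although the design had set a fitted value. RANK was fitted without the filter. On simulated data (13487 genes) 200 of 200 genes with a log2 change of 1 were recovered, with 2 false calls. The changed genes were drawn from those with a mean above 1 CPM, and every gene had the same relative spread between replicates. Calls on lower levels or on genes with a larger spread were thus not covered. Replicates differed beyond sampling noise, OIM replicate 2 most. Alternatives were DESeq2 1.42.0, no filter, library totals, no fold limit, other pseudocounts, leaving out each library and a replicate block.

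The genes named were the members, up to 4 called genes per list and direction with the largest change and a mean of at least 10 counts, some fixed pathway genes, 5 most alike genes per member and 2 neighbours on each side. Some items are not reported here. The members and the lists were chosen with earlier results of these data known. Positions and lengths come from RefSeq on the same build, and 99.9% of genes matched a transcript length.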

Additional observations from a re-analysis of the deposited data

How the results depend on the processing

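TNFRSF11B kept its direction under every alternative run, as did the ratio of RANKL to OPG between bFGF and either other group. Of 200 alternative values, 182 kept their direction and moved by less than the spread between replicates (1 SD) or, for counts of called genes, stayed within 1.5 times the count reported. Some of these could not move. The ratio does not use libraries of the group outside the comparison, and the RANK transcripts have equal lengths. Leaving out 1 library at a time, TNFRSF11B ranged from 0.12 to 0.45 (OIM against control, log2), from -4.09 to -3.43 (bFGF against OIM) and from -3.84 to -3.18 (bFGF against control). TNFRSF11A, on at most 8 reads, had no stable direction. OIM against control (-0.10) ran from -1.10 to 0.64, turning to 0.64 without control replicate 3, 0.32 without OIM replicate 1 and 0.12 without OIM replicate 2. bFGF against OIM (0.47) ran from -0.034 (without bFGF replicate 3) to 1.47. bFGF against control (0.37) ran from -0.14 (without bFGF replicate 3) to 1.11 and was -0.066 without control replicate 1.

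The fitted log2 difference of TNFSF11, which depends on the prior count and is no bound, was 7.46 with edgeR against either group and 6.94 with DESeq2, and 7.18 to 7.67 without 1 library. The log2 ratio of RANKL to OPG (pseudocount 0.5) was 9.31 for bFGF against OIM, 7.33 with a pseudocount of 2 and 10.83 from summed counts. Against control it was 9.07, 7.10 and 10.58. These follow from the 0 counts. Without 1 library it ran from 8.89 to 9.85 and from 8.66 to 9.62. No fold of TNFSF11 or of the ratio is given for OIM against control, where RANKL was at 0 in all libraries, and DESeq2 gave no value for TNFRSF11A.

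Without the fold limit, 14 pathway genes were higher and 10 lower in OIM against control, and 29 were higher and 45 lower in bFGF against OIM. The shares of all genes called in this way were 7.69% and 5.87%, and 33.8% and 33.5%. Leaving out 1 library gave 2 to 3 higher and 2 to 6 lower in OIM against control, with 6 lower without OIM replicate 2, and 19 to 21 higher and 23 to 26 lower in bFGF against OIM. Scaling by library totals moved the median of all genes in bFGF against OIM by 0.22 and gave 27 pathway genes higher and 20 lower. The replicate numbers did not pair the samples, since deviations of same-numbered libraries correlated by -0.032 to 0.0035. With the number as a block, TNFRSF11B was -3.73 for bFGF against OIM, pathway calls there were 20 and 24, and calls over all genes went from 4939 to 4917. At 1 to 8 reads per library, depth limits any statement on RANK.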
